A study of Mus musculus with 72 samples.

Results

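The WT iXist-ChrX-Dom line was followed beyond the first week of differentiation to days 15, 21, 35 and 52, with 1 library at each day, and these 4 late libraries were set against the 4 libraries of days 5 and 7, with 2 replicates at each day (the early libraries here). The libraries were chosen by line, genotype and day alone, and they are 8 of the 72 samples of the series. All 8 were made by ChrRNA-seq, which sequences the RNA held in the chromatin pellet and so counts mostly nascent transcripts. iXist-ChrX-Dom is a female mouse embryonic stem cell (mESC) line from a cross of Dom/129S and Cast, in which a TetOn promoter replaces the Xist promoter on the 129S allele, and it is WT for SmcHD1. Doxycycline kept Xist on throughout, so the Dom X is the inactive X (Xi) and the Cast X is the active X (Xa). The cells were grown in N2B27 medium towards neuronal precursor cells (NPCs), moved into suspension with EGF and FGF on day 7 and passaged from day 10 on. The line is 1 clone, and the late days were sampled once each, so the 4 late libraries serve as replicates of a period and their spread includes any change from day 15 to day 52. The study describes the numbered replicates as replicate time courses, so the 4 early libraries come from 2 of them and the tests over 8 libraries treat them as 4. With days 5 and 7 of a time course averaged, a permutation test of 4 against 2 values cannot go below 0.0667. This test still counts the late libraries as 4. Whether the late days are successive samples of 1 passaged culture is not stated in the sources used here. If they are, the late libraries are not independent and the p-values given are too small.

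Neural precursors in EGF and FGF are an expanding population that switches off the pluripotency network, keeps radial glial genes such as Vim and Nes on, and with time gains glial competence through the Nfi factors. Genes of the Hox clusters give cells of the trunk their position along the body axis and are silent in mESCs and in forebrain. On the X chromosome, Xist RNA coats the chromosome from which it is made and silences it gene by gene, except for escape genes that stay partly active, and silencing is completed only as cells differentiate.

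The 8 libraries held 24234960 to 31216487 fragments assigned to genes, of which 46.55% to 49.13% could be assigned to an allele. Values are given as RPM, counts scaled to 1000000 assigned fragments, in the order day 5 replicates 1 and 2, day 7 replicates 1 and 2, then days 15, 21, 35 and 52. RPM is not scaled by gene length, so levels were compared between libraries and not between genes. The libraries fell into a pair of allelic profiles that cut across the periods. At the distal end of chromosome 6, the Cast share of allelic fragments was 0.487 to 0.499 in day 5 replicate 1, day 7 replicate 1 and day 15, and 0.0464 to 0.138 in day 5 replicate 2, day 7 replicate 2 and days 21, 35 and 52. Results were therefore also computed with this profile as a term. In all 8 libraries the Cast share was also uneven on chromosome 8, at 0.643 to 0.662, and past 80 Mb of chromosome 12, at 0.707 to 0.751.

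Over total counts, 1815 of 14707 genes tested (12.3%) differed between the late libraries and days 5 and 7 at an adjusted p below 0.05 (edgeR quasi-likelihood test, Benjamini-Hochberg), 1264 of them higher (8.59%) and 551 lower (3.75%). The median log2 difference over all genes was −0.02. Genes that were off on days 5 and 7 were tested only where their late counts passed the filter on low counts. The list shares and medians below can therefore lean towards rises. RPM values of the periods did not overlap for 3819 genes (26% of those tested). With the allelic profile as a term, 2169 genes passed, of which 1568 were among the 1815. The count moved with the library left out: it was 401 and 398 without day 5 replicate 1 or 2, 1570 and 415 without day 7 replicate 1 or 2, it was 650 and 645 without day 35 or 52 and 1037 without day 15, and it was 3950 without day 21. Set against day 7 alone, 0 genes passed in edgeR and 2855 had an unadjusted p below 0.05. Scaled by library totals in place of TMM, the median of all genes moved to −0.227, 2766 genes passed, and the share of higher calls went from 69.6% to 36.5%.

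A minority of pluripotency genes passed the threshold as lower in the late libraries, and the day 21 library kept the most of their RNA among these. That number moved with the setting. In bulk RNA, fewer cells of a type and less RNA per cell cannot be told apart. Of 14 core and primed pluripotency genes, 0 rose, 3 fell and 11 did not pass, with a median log2 difference of −1.7 against −0.02 for all genes. Pou5f1, the core pluripotency factor Oct4, was at 67.9, 53.9, 29.1 and 45.9 RPM on days 5 and 7 and at 6.44, 26.9, 14.3 and 4.01 RPM in the late libraries, all 4 of which lay below the early ones, but its log2 difference of −1.74 missed the threshold (adjusted p = 0.0599). Sall4, a zinc finger factor of the same network, fell by 1.27 ± 0.34 on the log2 scale (SE, adjusted p = 0.044), from 61.6 to 96.9 RPM down to 16, 49.8, 30.3 and 16.2 RPM. Pou3f1, a POU factor of primed cells, fell by 1.7 ± 0.31 (adjusted p = 0.0158), and Utf1, a chromatin factor of mESCs, by 2.93 ± 0.77 (adjusted p = 0.042).

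Summed over this list, RPM was 718 to 1250 on days 5 and 7, and 150, 704, 382 and 131 at days 15, 21, 35 and 52, so the day 21 library was closest to the early ones and day 52 farthest. Without the day 21 library 12 of the 14 genes fell, and without either day 5 replicate 0 did. Of 15 naive pluripotency genes 1 rose, 1 fell and 13 did not pass (median −1.5), and their summed RPM overlapped between the periods, with 204 to 546 early and 181, 273, 175 and 158 late. Without the day 21 library 8 of the 15 were called lower, beside 1713 of all 14962 genes tested. In DESeq2 5 of the 15 were, beside 1554 of 14707. Without either day 5 replicate 0 of the 15 were. Fgf4, a growth factor made by mESCs, fell by 2.31 ± 0.63 (adjusted p = 0.047), and Tet2, which oxidises methylated cytosine, went the other way and rose by 1.12 ± 0.28 (adjusted p = 0.0372). Zfp42, the naive marker Rex1, was at 21.6 to 114 RPM on days 5 and 7 and at 5.7, 23.1, 4.11 and 0.109 RPM later (adjusted p = 0.0999). Nanog was at 2.75, 18.9, 7.77 and 1.6 RPM against 16.1 to 39.3 RPM (adjusted p = 0.158), with day 21 within the early range.

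**Figure D1:**
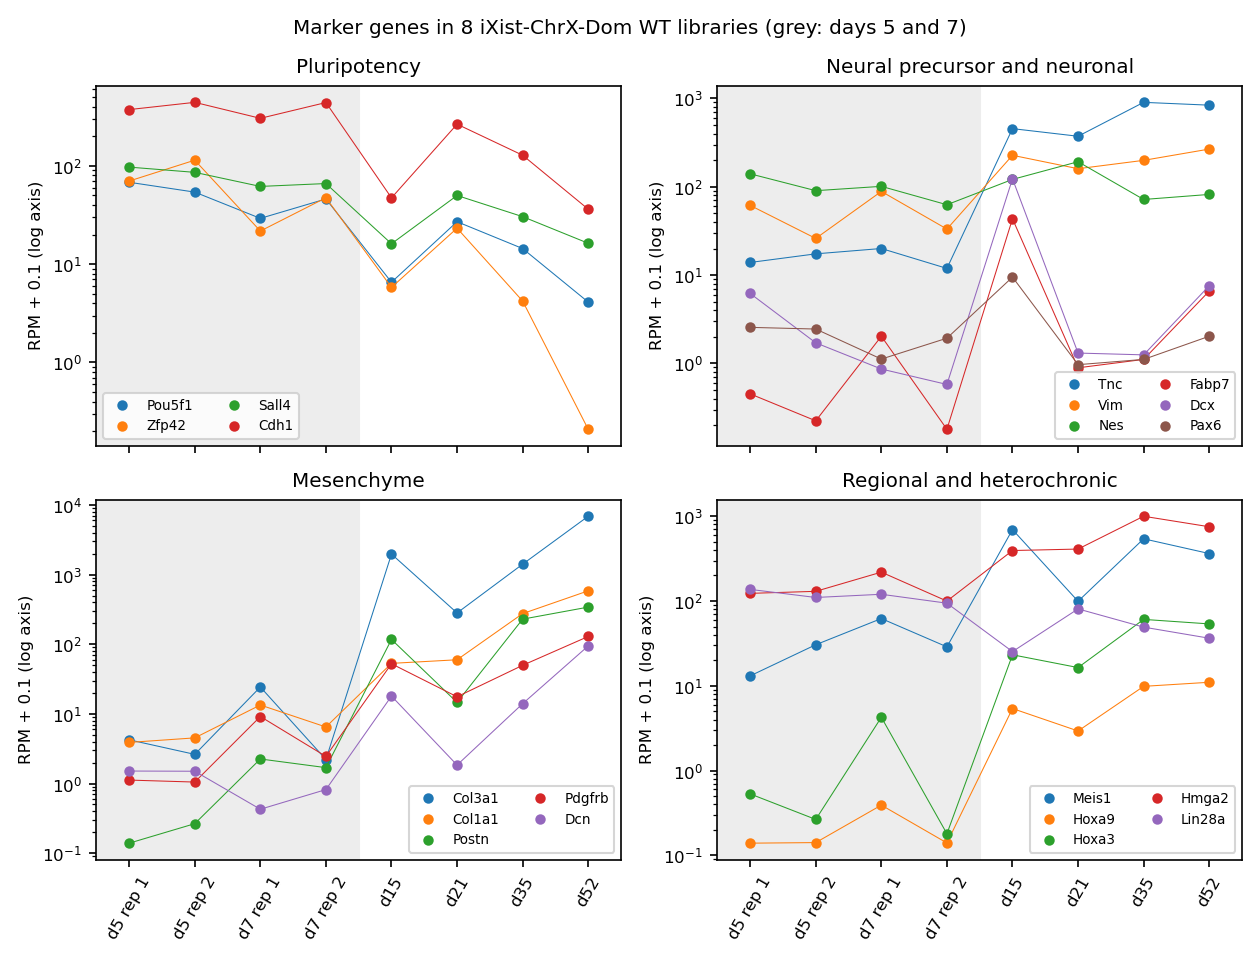
RPM of marker genes (log axis, 0.1 added) in each of the 8 libraries, days 5 and 7 on grey, in 4 groups of genes; each point is 1 library and lines join the points of a gene. Pluripotency genes were lower at days 15, 35 and 52 than at day 21, Fabp7, Dcx and Pax6 peaked in the day 15 library, and Col3a1 went from 2.11 to 24.2 RPM up to 281 to 6880 RPM.

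Markers of neural precursors met the label only in part. Of 17 radial glia and neural stem cell genes, 5 rose, 0 fell and 12 did not pass (median log2 difference 0.85). The shares over all genes tested were 8.59% higher and 3.75% lower. Vim, Cd44, Sox9 and Tnc among the risers are also expressed in mesenchyme, whose marker sum went from 35.6 to 134 RPM early to 493 to 8350 RPM late, and its part in these rises was not tested. Tnc, an extracellular matrix protein of radial glia and of mesenchyme, was at 13.8, 17.3, 19.9 and 11.8 RPM and then at 455, 373, 903 and 839 RPM, a rise of 5.56 ± 0.39 on the log2 scale (adjusted p = 0.00133). Vim, the intermediate filament vimentin, was at 61.4, 25.9, 88.5 and 33.1 RPM and then at 227, 160, 199 and 267 RPM, a rise of 2.25 ± 0.39 (adjusted p = 0.0144). For both genes every late library lay above every early one, and both passed in each of the 8 fits that left out 1 library. Cd44, a hyaluronan receptor, rose by 2.46 ± 0.4 (adjusted p = 0.012) and also held in all 8. Sox9, a factor of glial competence, rose by 2.77 ± 0.66 from 0.248 to 1.82 RPM up to 2.83 to 9.42 RPM, and Gli3, a transcription factor of the Hedgehog pathway, by 0.97 ± 0.23, and each held in 2 of the 8 fits.

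Other precursor markers did not pass. Nes, the intermediate filament nestin, was at 140, 90.2, 101 and 62.5 RPM on days 5 and 7 and at 121, 192, 71.7 and 81.8 RPM later, with the ranges overlapping (log2 difference 0.45, adjusted p = 0.342). Pax6, a homeodomain factor of the neural plate, was at 1.02 to 2.46 RPM on days 5 and 7, and at 9.39 RPM on day 15 but 0.868, 1.01 and 1.93 RPM at the 3 later days. Fabp7, the radial glial fatty acid binding protein, was at 43.3 RPM on day 15, against 0.792, 1.01 and 6.49 RPM at days 21, 35 and 52 and 0.0797 to 1.93 RPM on days 5 and 7 (adjusted p = 0.0748). The day 15 library was thus the only late library in which Pax6 lay above all of days 5 and 7. Sox1 and Sox2 were listed at 0 in all 8 libraries and check nothing, and Gfap, Olig1 and Olig2 were at 0.481 RPM or less throughout.

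Early neural plate genes were split. Of 14 tested, 3 rose, 1 fell and 10 did not pass, with a median of 1.61, beside 8.59% higher and 3.75% lower over all genes. Ncam1, a neural cell adhesion molecule, was at 158, 179, 246 and 178 RPM and then at 716, 384, 832 and 565 RPM, a rise of 1.93 ± 0.28 (adjusted p = 0.00895) that held in all 8 fits with 1 library left out. Cdh2, N-cadherin, rose by 2.32 ± 0.61 to a narrow late range of 1050 to 1300 RPM, from an early range of 73 to 631 RPM in which the replicates numbered 1 were higher (adjusted p = 0.0421). Zfp521, a zinc finger factor of early neural fate, rose by 2.08 ± 0.49 with overlapping ranges, and Zic5 fell by 1.29 ± 0.29 (adjusted p = 0.0276).

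Of the 21 neuronal genes tested, 14 had their highest RPM in the day 15 library, without a replicate. None rose and 1 fell, Stmn2, a microtubule regulator of growing axons, from 96 to 134 RPM down to 29.7 to 72.8 RPM (adjusted p = 0.0302). Dcx, a microtubule protein of young neurons, was at 123 RPM on day 15, against 1.21, 1.15 and 7.47 RPM at days 21, 35 and 52 and 0.478 to 6.09 RPM on days 5 and 7 (adjusted p = 0.107). Map2, another microtubule protein of neurons, was at 613 RPM on day 15 and 390 RPM on day 52, against 102 and 151 RPM at days 21 and 35 and 90.8 to 177 RPM earlier (adjusted p = 0.0931). Summed RPM of the list was 1240 on day 15 and 294 to 536 in the other 7 libraries. The day 15 library was also the highest for 10 of 17 radial glia and 8 of 14 early neural plate genes. The share of all genes that were highest in this library is not given. These counts therefore do not set the 3 lists apart from other genes. Day 15 was the only late library with a near even Cast share at distal chromosome 6 (0.499), so day and allelic profile cannot be told apart in its values.

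Mesenchymal matrix genes were far higher in the late libraries. Of 10 fibroblast and mesenchyme genes tested, 7 rose, 0 fell and 3 did not pass, with a median of 3.88, and the summed RPM of the list was 35.6 to 134 on days 5 and 7 and 2320, 493, 2150 and 8350 at days 15, 21, 35 and 52. Members near 0 early, such as Postn, passed the filter on low counts only through their late values. Neither the share that rose nor the median therefore stands for the whole list. Col3a1, the alpha chain of type III collagen, was at 4.14, 2.52, 24.2 and 2.11 RPM and then at 1970, 281, 1410 and 6880 RPM, a rise of 8.53 ± 1.4 (adjusted p = 0.0125). Postn, a matricellular protein, was at 0.0391, 0.165, 2.15 and 1.59 RPM and then at 117, 14.5, 229 and 341 RPM (7.66 ± 1.3, adjusted p = 0.0126). In both genes day 21 was the lowest late library and still lay above every early one, and both passed in all 8 fits with 1 library left out. Col1a1 rose by 5.33 ± 0.93, Dcn, the proteoglycan decorin, by 5.31 ± 1.2, Pdgfrb, a receptor of mesenchymal cells, by 4.41 ± 0.92, Twist2 by 3.35 ± 0.55 and Col1a2 by 2.93 ± 0.79. The count of 7 was 3 without day 5 replicate 1, day 5 replicate 2 or day 7 replicate 2. Thy1, Acta2 and Tagln did not pass, with log2 differences of −0.56, 1.6 and −0.01.

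The 10 genes with the largest rises over the whole table, among those past the threshold with periods that did not overlap, were Dnm3os (9.06 ± 1.1), Lrrc17 (8.81 ± 1.4), Col3a1, Col6a3 (8.29 ± 1.2), Emcn (7.87 ± 1.4), Postn, C1qtnf7 (7.59 ± 0.93), Clca1 (7.41 ± 0.89), Aspn (7.36 ± 1.5) and Hoxa10 (7.33 ± 0.91). Dnm3os, a non-coding RNA that hosts microRNAs in mesenchyme, was at 0.159 to 0.391 RPM on days 5 and 7 and at 113, 8.15, 101 and 209 RPM later. Col6a3 encodes a chain of type VI collagen, and Aspn a small proteoglycan of the same family as decorin. Emcn, an endothelial sialomucin, was at 44.6 RPM on day 15 and 0.679 to 7.62 RPM at the other late days, while of the endothelial and blood list 4 genes were tested and 0 passed. Clca1 differed from the collagens in being lowest on day 15, at 2.5 RPM against 17, 39.8 and 19.2 RPM.

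The mESCs were kept on feeder fibroblasts, which were removed before differentiation and whose strain is not given in the sources used here. RNA of these genes came from both alleles in the late libraries. Col3a1 had 15082, 1707, 9302 and 36976 allelic fragments at days 15, 21, 35 and 52, with Cast shares of 49.3%, 50.7%, 53.5% and 52.3%. Cast shares were 40.6%, 42.7%, 57.7% and 53.3% for Postn, 45.2% to 48.4% for Twist2, 48.7% to 55.4% for Col1a2, 43.1% to 52.6% for Pdgfrb, 61.7% to 63.9% for Col1a1 and 41.7% to 61.2% for Dcn. Lum, which was not tested, had 47.9%, 28.6% and 31.1% on days 15, 35 and 52 over 188, 42 and 183 fragments, and Tnc had 46.7%, 40.2%, 40% and 32.6%, so shares were not even at all of these genes. Whole autosomes other than 8 and 12 had Cast shares of 0.448 to 0.523. The part of mesenchymal cells in the other results was not tested. The titles of the libraries label them as NPC, and they are named here by their days alone. Neural crest genes gave 2 rises of 6 tested, Snai2 (4.04 ± 0.93) and Twist1 (2.27 ± 0.55), both transcription factors of migrating cells that are also made in mesenchyme. Mesoderm and endoderm lists gave 0 calls of 7 and of 6 tested.

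Hox genes supplied 17 of the rises. Of the 39 Hox genes, 4 (Hoxa4, Hoxa5, Hoxa6 and Hoxd4) were listed at 0 in all 8 libraries, 22 passed the filter on low counts, and 17 of these rose, 0 fell and 5 did not pass, with a median log2 difference of 4.85. Many passed that filter only through their late values, so neither the share that rose nor the median stands for all Hox genes. Hoxa10, a gene of the lumbar trunk, was at 0.0781, 0.0413, 0.182 and 0 RPM on days 5 and 7 and at 5.7, 3.13, 17.1 and 19.5 RPM later, a rise of 7.33 ± 0.91 (adjusted p = 0.00727). Hoxd10 was at 0.0781, 0, 0.146 and 0 RPM and then at 4.42, 3.92, 19.1 and 7.14 RPM (7.31 ± 0.92, adjusted p = 0.00727). Hoxd11 was at 0.0391, 0.0413, 0.291 and 0.0399 RPM and then at 4.39, 5.7, 26.6 and 7.98 RPM (6.85 ± 0.91, adjusted p = 0.00771). In each the late libraries lay above all early ones, and the highest early value was that of day 7 replicate 1.

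That library carried more Hox RNA than the other 3 early ones, with a summed RPM of 28.6 against 3.59, 3.18 and 3.39, while the late sums were 134, 74.8, 293 and 245. Hoxd3 was at 13.5 RPM in it against 0.199 to 0.547 RPM in the others, and at 44.9, 22.6, 61.6 and 64.9 RPM later (adjusted p = 0.0665). Without day 7 replicate 1, 20 of the 22 Hox genes rose, and the count was 10 without day 5 replicate 2 or day 7 replicate 2 and 11 without day 5 replicate 1. Within cluster C, Hoxc10 rose by 6.33 ± 1 from 0.124 RPM or less to 0.717 to 4.25 RPM, whereas Hoxc13, the last gene of its cluster, was at 0.352 to 0.867 RPM on days 5 and 7 and at 0, 0.339, 0.975 and 0.838 RPM later (adjusted p = 0.845). Hoxd13 did not pass the filter and was at 0.192, 0.566, 3.17 and 0.583 RPM in the late libraries.

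**Figure D2:**
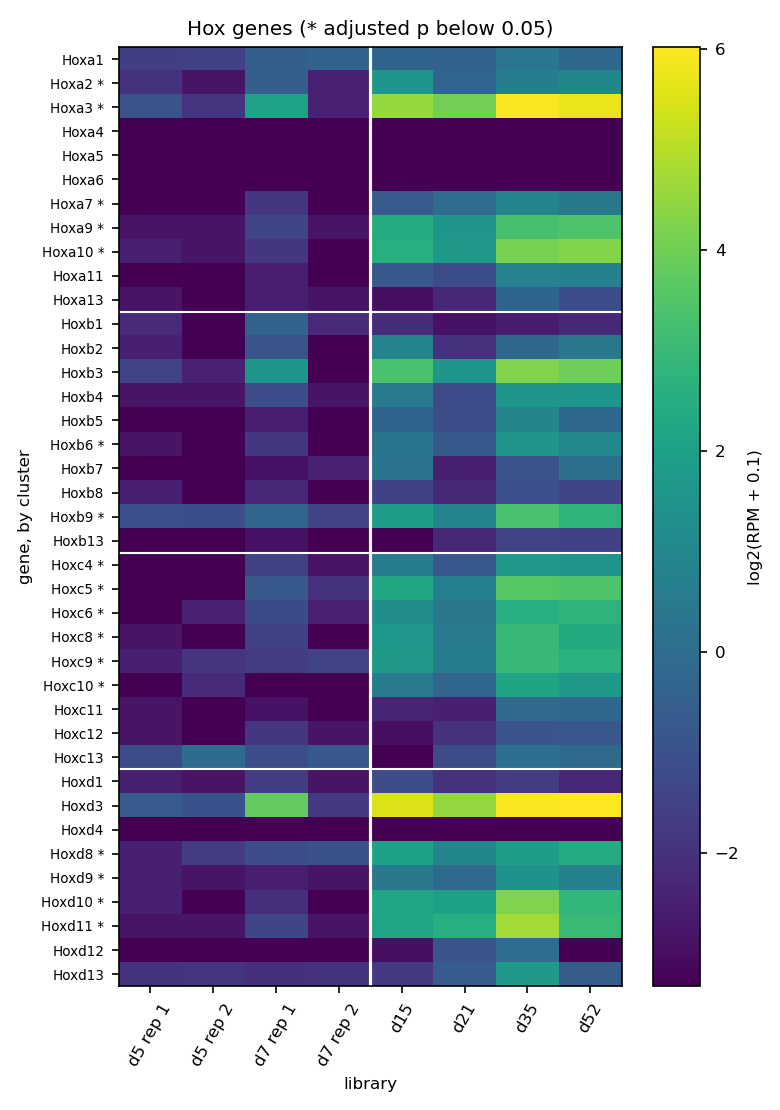
Colour gives log2(RPM + 0.1) of each of the 39 Hox genes (rows, by cluster A to D, from the first to the last gene) in each of the 8 libraries (columns), with a white line between days 5 and 7 and the late days and an asterisk at genes past the threshold. The 17 asterisked genes are brighter in all 4 late libraries, day 21 is the dimmest of these by summed RPM, and day 7 replicate 1 stands out among the early libraries at Hoxa3, Hoxb3 and Hoxd3.

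Regional genes of the midbrain and hindbrain rose in part, with 3 rises and 0 falls among 12 tested of 17 listed (median 1.97). Among all genes tested 8.59% were called higher, and members off early could enter only through late counts. Meis1, a Hox cofactor, was at 13, 30.4, 62 and 28.7 RPM and then at 696, 99.2, 542 and 363 RPM (3.88 ± 0.69, adjusted p = 0.0152). Meis2, its paralogue, rose by 2.85 ± 0.75 with overlapping ranges, because day 7 replicate 1 was at 199 RPM and day 21 at 128 RPM. Egr2, which marks rhombomeres and Schwann cells, rose by 4.08 ± 1.1 with most of its RNA on day 52, at 9.37 RPM against 0.189 to 1.79 RPM at the other late days. Pax3, a factor of dorsal neural tube and crest, was at 112, 14.1, 55.6 and 192 RPM late and at 47.7 RPM in day 7 replicate 1 against 0.908 to 2.97 RPM in the other early libraries (adjusted p = 0.137). Only 1 of 12 forebrain genes passed the filter, Sp8, at 3.34 to 21.1 RPM early and 8.29 to 10.9 RPM late.

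Among glial genes the Nfi factors, which open the glial programme in maturing precursors, rose. Of 12 astroglial genes tested, 4 rose, 1 fell and 7 did not pass (median 0), beside 8.59% higher and 3.75% lower over all genes. Nfia was at 211, 213, 483 and 298 RPM and then at 1570, 610, 867 and 1300 RPM (2.07 ± 0.4, adjusted p = 0.0191), Nfib rose by 2.27 ± 0.46 and Nfix by 4.36 ± 0.9. For all 3 the late libraries lay above the early ones, with day 21 the lowest late value. Slc1a2, a glutamate transporter of astrocytes, rose by 2.72 ± 0.74 but was at 2.3 RPM on day 21, within the early range of 2.1 to 4.4 RPM. Apoe, a lipid carrier secreted by astrocytes, fell by 1.08 ± 0.19 (adjusted p = 0.0146) and did so in all 8 fits with 1 library left out. Gja1, Clu, Glul and Aldoc did not pass, and of 7 oligodendroglial genes tested 0 passed.

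Signalling genes changed singly. Of the Notch ligands Jag1 rose by 2.29 ± 0.51, from 10.4 to 36.8 RPM up to 53.4 to 183 RPM, and Jag2 fell by 1.48 ± 0.3, from 22.2 to 37.4 RPM down to 5.87 to 16.3 RPM. Jag2 lies in the stretch of chromosome 12 with an uneven Cast share, and its own Cast share was 73.2% early and 75.4% late. Of 13 receptors and modulators, Maml2, a coactivator of the Notch complex, rose by 2.57 ± 0.41 in every fit with 1 library left out, and the other 12 did not pass, Notch1 among them at 60 to 125 RPM early and 61.4 to 140 RPM late. The targets Hey1 and Hey2, transcriptional repressors, rose by 1.79 ± 0.48 and 1.68 ± 0.36, and Hes1 did not pass (5.41 to 18.6 RPM early, 6.89 to 19 RPM late).

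EGF and FGF were added to the medium at the move to suspension on day 7. Period therefore cannot be told apart from the added factors or the change of culture form. Among 13 genes of their receptors and ligands, Egfr, the EGF receptor, was the only call. It rose by 1.38 ± 0.39 (adjusted p = 0.0495) with overlapping ranges, and passed in 1 of the 8 fits with 1 library left out. Fgfr1, the main FGF receptor of precursors, was at 122 to 202 RPM early and 133 to 209 RPM late. Of 19 ERK response genes, which report FGF and EGF signalling, Spry4, a feedback inhibitor, rose by 1.49 ± 0.32 and 18 did not pass (median 0.45). In the same edgeR fit 8.59% of all genes were called higher. In DESeq2, 3 of the 13 rose and 1 fell, and 3 of the 19 rose. Over all 14707 genes tested, DESeq2 called 2225 higher and 1554 lower.

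Heterochronic factors, which time development, went both ways. Of 10, 3 rose and 2 fell, beside 8.59% called higher and 3.75% called lower of all genes tested. Plagl1, an imprinted zinc finger gene, was at 25.5, 22.4, 36.6 and 31.8 RPM and then at 224, 107, 199 and 313 RPM (3.08 ± 0.35, adjusted p = 0.00727). Hmga2, a chromatin protein of young neural stem cells, was at 123, 130, 219 and 99.7 RPM and then at 394, 410, 1000 and 752 RPM (2.37 ± 0.38, adjusted p = 0.0119). Both lay above the early range in all 4 late libraries and passed in all 8 fits with 1 library left out, and Igf2bp2, an RNA-binding protein, rose by 1.16 ± 0.26. Lin28a, which blocks let-7 maturation, fell by 1.08 ± 0.3 from 94.2 to 137 RPM down to 25.2, 80.6, 49.1 and 36.3 RPM, and Trim71, a target of let-7, fell by 0.83 ± 0.21. Each of these 2 falls held in 1 of the 8 fits, the one without day 21.

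Cell cycle genes were a little lower as a list, with a median of −0.33 over 19 genes, 1 rise and 3 falls. Over all genes tested 8.59% were called higher and 3.75% lower. Ccnd2, a D-type cyclin, was at 20.3, 15.2, 38.3 and 34.3 RPM and then at 86, 88.5, 211 and 326 RPM (2.93 ± 0.52, adjusted p = 0.0151). Mcm2, of the replicative helicase, fell by 0.75 ± 0.17, Ccnb1, a mitotic cyclin, by 0.71 ± 0.2 and Plk1, a mitotic kinase, by 0.66 ± 0.14, while Mki67 was at 403 to 502 RPM early and 302 to 442 RPM late (adjusted p = 0.497). With library totals in place of TMM, 8 of the 19 fell. In that setting 1756 of all 14707 genes were called lower, and the median of all genes was −0.227. Of 10 CDK inhibitors and related genes, Cdkn2c rose by 3.13 ± 0.7 and Cdkn2b by 2.24 ± 0.54, each in 2 of the 8 fits, and Cdkn1a and Cdkn2a did not pass. These 2 rises of 10 stand beside 8.59% called higher over all genes.

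**Figure D3:**
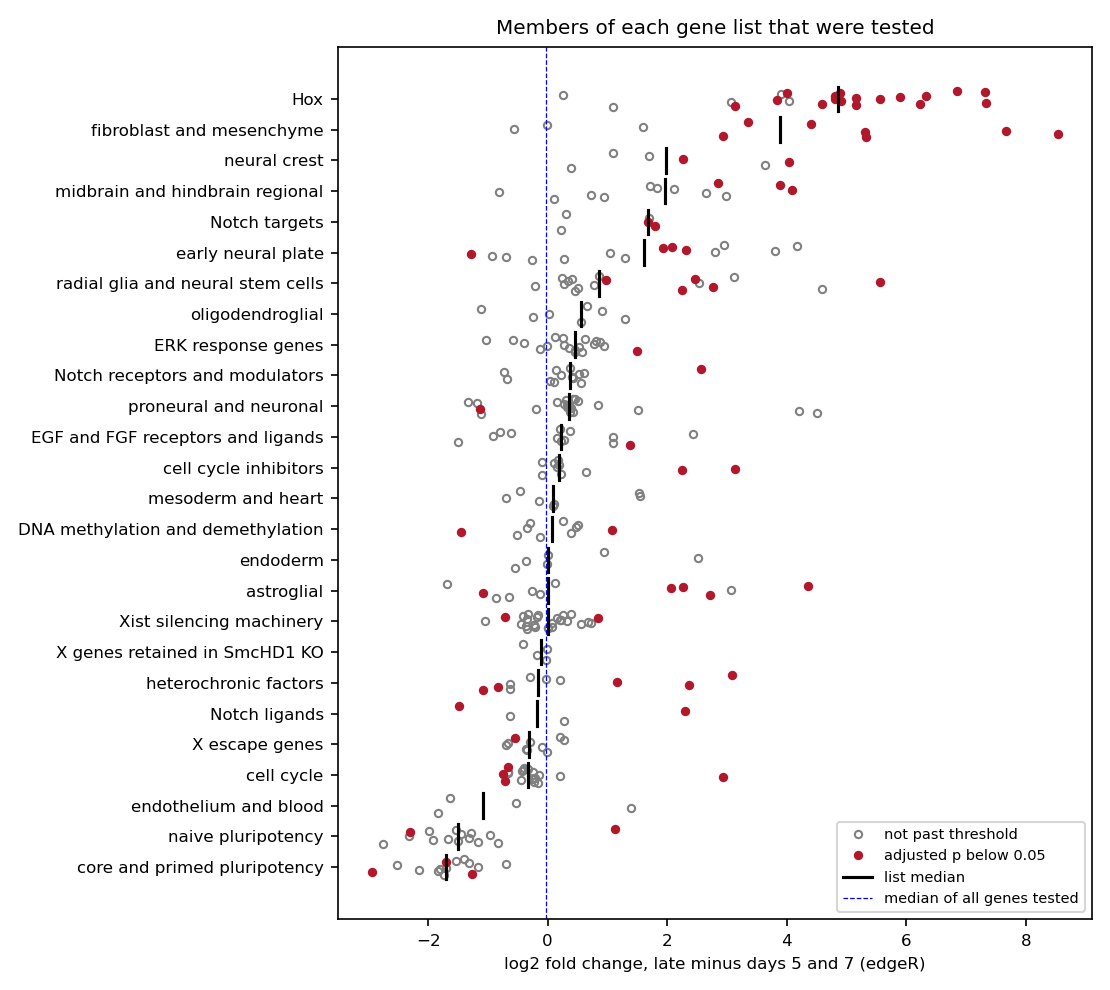
Each point is the log2 fold change of 1 list member between the late libraries and days 5 and 7 (edgeR, 8 libraries), filled red where it passed the threshold, with the list median as a black bar and the median of all genes tested (−0.02) as a dashed line. Most tested Hox genes lie to the right of 0 and most pluripotency genes to the left, and genes that are off on days 5 and 7 appear only where their late counts passed the filter.

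Among called genes without overlap between the periods and with a mean log2 CPM of 2 or more, the 10 largest falls were Trpm6 (−3.23 ± 0.77), C330024D21Rik (−2.96 ± 0.58), Wdr86 (−2.61 ± 0.7), Hormad2 (−2.57 ± 0.62), Hs3st4 (−2.42 ± 0.48), 4930500J02Rik (−2.35 ± 0.63), the X-linked Ptchd1 (−2.3 ± 0.35), Dmc1 (−2.29 ± 0.62), Gm2373 (−2.24 ± 0.46) and Lrp2 (−2.12 ± 0.34). Lrp2, an endocytic receptor of neuroepithelium and endoderm, was at 489, 642, 1100 and 760 RPM and then at 78.1, 166, 170 and 189 RPM. Ptchd1 was at 81.3, 62.3, 37.6 and 65.2 RPM and then at 5.41, 17.9, 12 and 8.13 RPM. These 2 genes passed in all 8 fits with 1 library left out, and the other 8 in 2 to 4 of them. Hormad2 and Dmc1 act in meiotic recombination.

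Of 27 genes of the silencing machinery that acts with Xist, Yaf2, a subunit of variant PRC1, rose by 0.84 ± 0.2, Suz12, a core subunit of PRC2, fell by 0.72 ± 0.2, and 25 did not pass (median 0), against 12.3% called among all genes. Without day 21, 5 rose and 4 fell, and in DESeq2 4 rose and 2 fell. Over all genes, the fit without day 21 called 2237 of 14962 higher and 1713 lower. DESeq2 called 2225 of 14707 higher and 1554 lower. Smchd1, intact in this line, was at 628, 560, 572 and 574 RPM and then at 537, 648, 460 and 382 RPM (log2 difference 0, adjusted p = 0.987), and the sign of its difference turned with the scaling. Spen was at 112 to 145 RPM early and 69.2 to 105 RPM late (adjusted p = 0.156). Of 10 genes of DNA methylation, Tet3, which oxidises methylated cytosine, rose by 1.07 ± 0.22 and its paralogue Tet1 fell by 1.45 ± 0.41. Dnmt1, the maintenance methyltransferase, was at 180 to 233 RPM early and 155 to 180 RPM late (adjusted p = 0.489).

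To ask whether the late changes were particular to iXist-ChrX-Dom, the difference was tested against that of iXist-ChrX-Cast WT, in which Xist is driven from the Cast X, over days 15, 21 and 35 (1 library each) and days 5 and 7 (3 replicates each). Of 15565 genes, 0 passed the interaction in edgeR (695 had an unadjusted p below 0.05) and 4 passed in DESeq2, so no late change is called particular to iXist-ChrX-Dom. On its own the Cast line had 2215 genes higher and 1445 lower of 14895 tested. Col3a1 differed by 8.53 in iXist-ChrX-Dom and 8.01 in iXist-ChrX-Cast, Hoxa10 by 7.33 and 6.44, Hmga2 by 2.37 and 2.66, and Plagl1 by 3.08 and 2.86 on the log2 scale. Pluripotency medians in the Dom and Cast lines were −1.5 and −2.94 for naive and −1.7 and −2.66 for core genes. Pax6 did not pass in iXist-ChrX-Dom (1.05) and rose in iXist-ChrX-Cast (2.03, adjusted p = 0.00578), a difference that did not pass its own test (adjusted p = 0.942).

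Xist RNA was higher in every late library. It stood at 11000, 13900, 16600 and 15200 RPM on days 5 and 7 and at 37800, 25400, 41800 and 47500 RPM at days 15, 21, 35 and 52, or 1.1% to 1.66% and 2.54% to 4.75% of all fragments. The difference of mean log2 RPM was 1.41 (exact two-sided permutation test over 70 arrangements, p = 0.0286, the smallest that 4 against 4 libraries can give). In the test across all genes it rose by 1.64 ± 0.29 (adjusted p = 0.0147), and missed the threshold without day 5 replicate 2 or day 7 replicate 2 (up to 0.0538). Of its allelic fragments 99.9% were Dom. Ftx, a non-coding gene next to Xist, fell by 0.55 ± 0.14 (adjusted p = 0.0428), from 176 to 233 RPM down to 97.8 to 143 RPM, and passed in 1 of the 8 fits with 1 library left out.

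Xi expression went down further after day 7 for most of the chromosome. Allelic ratios, Xi/(Xi+Xa), were computed for the 246 X-linked genes that the study listed for this line, all of which lie at or before 103.396 Mb of X. Their median was 0.508 in uninduced mESCs of the line's SmcHD1 KO clone A3, the allelic background. The median ratio was 0.0503 and 0.0423 on day 5, 0.0164 and 0.0178 on day 7, and 0.00462, 0.00678, 0.00487 and 0.00205 at days 15, 21, 35 and 52. All 4 late libraries were below both day 7 libraries, with a difference of means from days 5 and 7 of −0.0271 (exact two-sided permutation test, p = 0.0286). At the median depth of 200 to 246 allelic fragments per gene, a gene without a single Xi fragment could still have a ratio of up to 0.0122 to 0.015, so the late medians lie below what 1 gene can show and are a statement over the whole set. The number of genes without an Xi fragment was 20, 31, 44 and 39 early and 85, 68, 77 and 102 late.

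**Figure D4:**
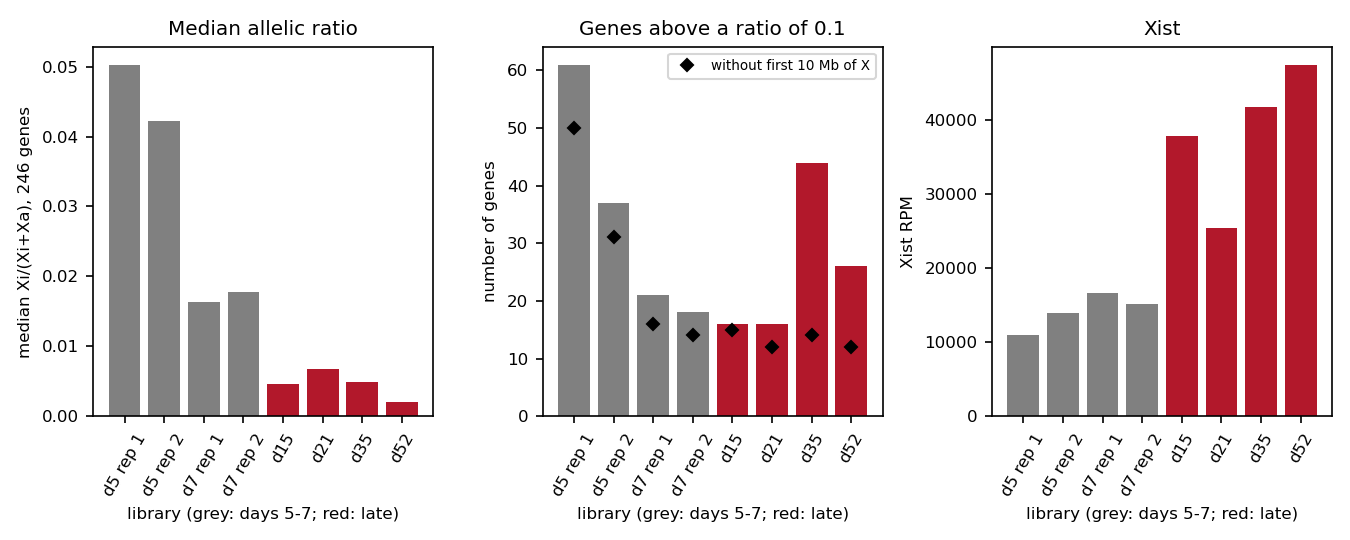
For each of the 8 libraries (grey, days 5 and 7; red, late), bars show the median allelic ratio Xi/(Xi+Xa) over 246 X-linked genes, the number of genes above a ratio of 0.1 (diamonds, without the first 10 Mb of X) and Xist RPM. The median is lowest at day 52 (0.00205), and the number above 0.1 is higher at days 35 and 52 than on day 7 only with the first 10 Mb of X included.

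Gene by gene, 228 of the 246 had 10 or more allelic fragments in all 8 libraries. The ratio was lower late than early in 185 of them, 97 had an unadjusted p below 0.05, and 7 passed (3.07%; limma on the ratio, Benjamini-Hochberg), all lower. Nkap, a nuclear protein of transcription and mitosis (chromosome X, 37126762 to 37150746, mm10), was at 0.143, 0.132, 0.0687 and 0.0864 on days 5 and 7 and at 0.031, 0.0146, 0 and 0 at days 15, 21, 35 and 52, over 200 to 370 allelic fragments. Ercc6l, a helicase of mitosis (102142819 to 102157091), was at 0.0484 to 0.086 and then at 0.00694, 0, 0 and 0. Both ended with no Xi fragment in the latest libraries. Their differences were −0.0962 ± 0.0201 and −0.0649 ± 0.0134 (SE, adjusted p = 0.0497 each).

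Among the genes with no Xi fragment in any late library were Fam122b (825 allelic fragments over the 4 libraries, which allows a ratio of up to 0.00364), Plxna3 (970, up to 0.00309) and G6pdx (524, up to 0.00573), whose early means were 0.0194, 0.0185 and 0.0153. Aifm1, an oxidoreductase of mitochondria, went from 0.0139 to 0.0233 down to 0 to 0.00662. The adjusted p was 0.0497 for all 7, and 0 genes passed at a minimum of 20 fragments, with the allelic profile as a term, or without any 1 late library or day 5 replicate 2. On the scale of log2((Xi+0.5)/(Xa+0.5)) 98 genes passed, 3 higher and 95 lower, and in edgeR on the allelic counts 91 passed, all lower. Against day 7 alone, 47 passed, all lower.

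Some genes kept Xi expression in every late library. Above a ratio of 0.1 in all 4 were Dynlt3, Pnma5, Slc25a5, Nono, Wdr44, Rpl10, Eif2s3x, Zfx and Rbmx2, 9 of 246, while 48 exceeded it in some and 189 in none. Of the 48, 31 lie in the first 10 Mb of X, described below. These counts set no minimum of allelic fragments. Slc25a5, a mitochondrial ADP/ATP carrier, was at 0.451, 0.398, 0.465 and 0.472 and then at 0.407, 0.396, 0.365 and 0.411, close to its uninduced ratio of 0.392. Nono, a nuclear RNA-binding protein, was at 0.203 to 0.285 and then at 0.245, 0.22, 0.234 and 0.238. Eif2s3x, a translation factor and known escape gene, was at 0.138 to 0.215 and then at 0.216, 0.163, 0.235 and 0.246 (difference 0.0505 ± 0.0292, adjusted p = 0.193). The early and late values of these 3 genes overlapped. Dynlt3 stood at 0.694, 0.741, 0.736 and 0.563, with an uninduced ratio of 0.909 that departs from equal alleles. Pnma5, at 0.339 to 0.636, had only 11 to 59 allelic fragments, and Wdr44 only 18 to 32 in the late libraries.

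Of the known escape genes and the genes that stay partly active in SmcHD1 KO, 0 of 8 passed on the ratio scale (3.07% of all genes did). On the log2 scale of allelic counts, 98 of all 228 genes tested passed, 95 of them lower. Kdm6a, Yipf6, Igbp1, Taf1 and Pin4 were among those lower on that scale (adjusted p of 0.00177 to 0.0305). Kdm6a, an escape gene encoding a histone demethylase (18162666 to 18279358), was at 0.293, 0.267, 0.134 and 0.158 and then at 0.062, 0.102, 0.0284 and 0.00659, over 4403 to 8149 allelic fragments (difference −0.163 ± 0.0413, adjusted p = 0.0783). Its late libraries lay below all early ones, as they did for Utp14a except on day 15 (0.175 against 0.133 to 0.228). Ddx3x, an RNA helicase, was at 0.0911 to 0.165 and then at 0.119, 0.0862, 0.0857 and 0.0201 (adjusted p = 0.25). Yipf6, Igbp1, Taf1 and Pin4 had early means of 0.0458, 0.0724, 0.0639 and 0.197 and late means of 0.00176, 0.00826, 0.00899 and 0.0459, with adjusted p of 0.0783 to 0.102.

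The first 10 Mb of the X went against the rest of it on days 35 and 52. This bin was picked out after its values were seen, and it holds 34 of the 246 genes, 32 of them tested. Summed over its genes, the Xi ratio was 0.113 and 0.0885 on day 5 and 0.0548 and 0.0788 on day 7, fell to 0.0209 on day 15 and 0.0545 on day 21, and stood at 0.185 on day 35 (95% Wilson interval 0.178 to 0.191) and 0.114 on day 52 (0.108 to 0.119). The neighbouring 10 to 20 Mb, with 15 genes, had ratios of 0.153, 0.131, 0.0634 and 0.0688 and then 0.0284, 0.0426, 0.0295 and 0.00901. Intervals cover counting error only. Of the 32 genes, 29 lay above all 4 early libraries on day 35 and 14 on day 52, against 1 on day 15 and 4 on day 21, while of the other 196 genes 11 and 7 did so on days 35 and 52 and 119 and 124 lay below all 4. Over the 4 late libraries together 26 of the 32 were higher (median difference 0.033) and 179 of the 196 lower (median difference −0.0217), and 0 of the 32 passed on their own.

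The 3 genes of this bin with the most allelic fragments show the course. Shroom4, which binds actin, was at 0.0797, 0.0568, 0.0164 and 0.0202, and then at 0.00748, 0.0367, 0.126 and 0.103. Clcn5, a chloride transporter, was at 0.0591, 0.0395, 0.0111 and 0.0203 and then at 0.00458, 0.0372, 0.199 and 0.107, and Rbm3, a cold-induced RNA-binding protein, at 0.128, 0.0623, 0.0479 and 0.0285 and then at 0.0223, 0.0669, 0.311 and 0.151. In all 3 day 15 was the lowest library and day 35 the highest. Wdr45, of the autophagy machinery, reached 0.48 on day 35 and 0.158 on day 52, over 100 and 57 fragments. Among the last genes of the bin Sytl5 was at 0.0256 and 0.0345 on days 35 and 52, and the next gene, Rpgr (10158215 on X), was at 0.0976 and 0.132 against 0.0433 to 0.0996 early.

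Summed RPM of the 32 genes was 942, 801, 794 and 756 early and 771, 886, 1000 and 909 late. Most of this was Xa RNA, so the total says little about Xi. The Xi part, this sum multiplied by the Xi ratio, was 107, 71.2, 43.4 and 59.7 RPM early. Later it was 16.1, 48.3, 185 and 103 RPM. In iXist-ChrX-Cast WT the summed ratio of these genes was 0.0126, 0.00399 and 0.00429 at days 15, 21 and 35, so its late libraries showed no such values. The 2 libraries concerned have the low allelic profile, as do day 21 and the second replicates of days 5 and 7, whose summed ratios were lower. Day 21 already departed from the rest of X by other measures. Its median over the 32 genes was 0.0502, against 0.0269 and 0.0287 on day 7. Of the 32 genes 4 lay below all 4 early libraries on day 21, against 110 of the other 196. With 1 library per late day, the change between the late days has no replicate check, and its source was not tested.

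**Figure D5:**
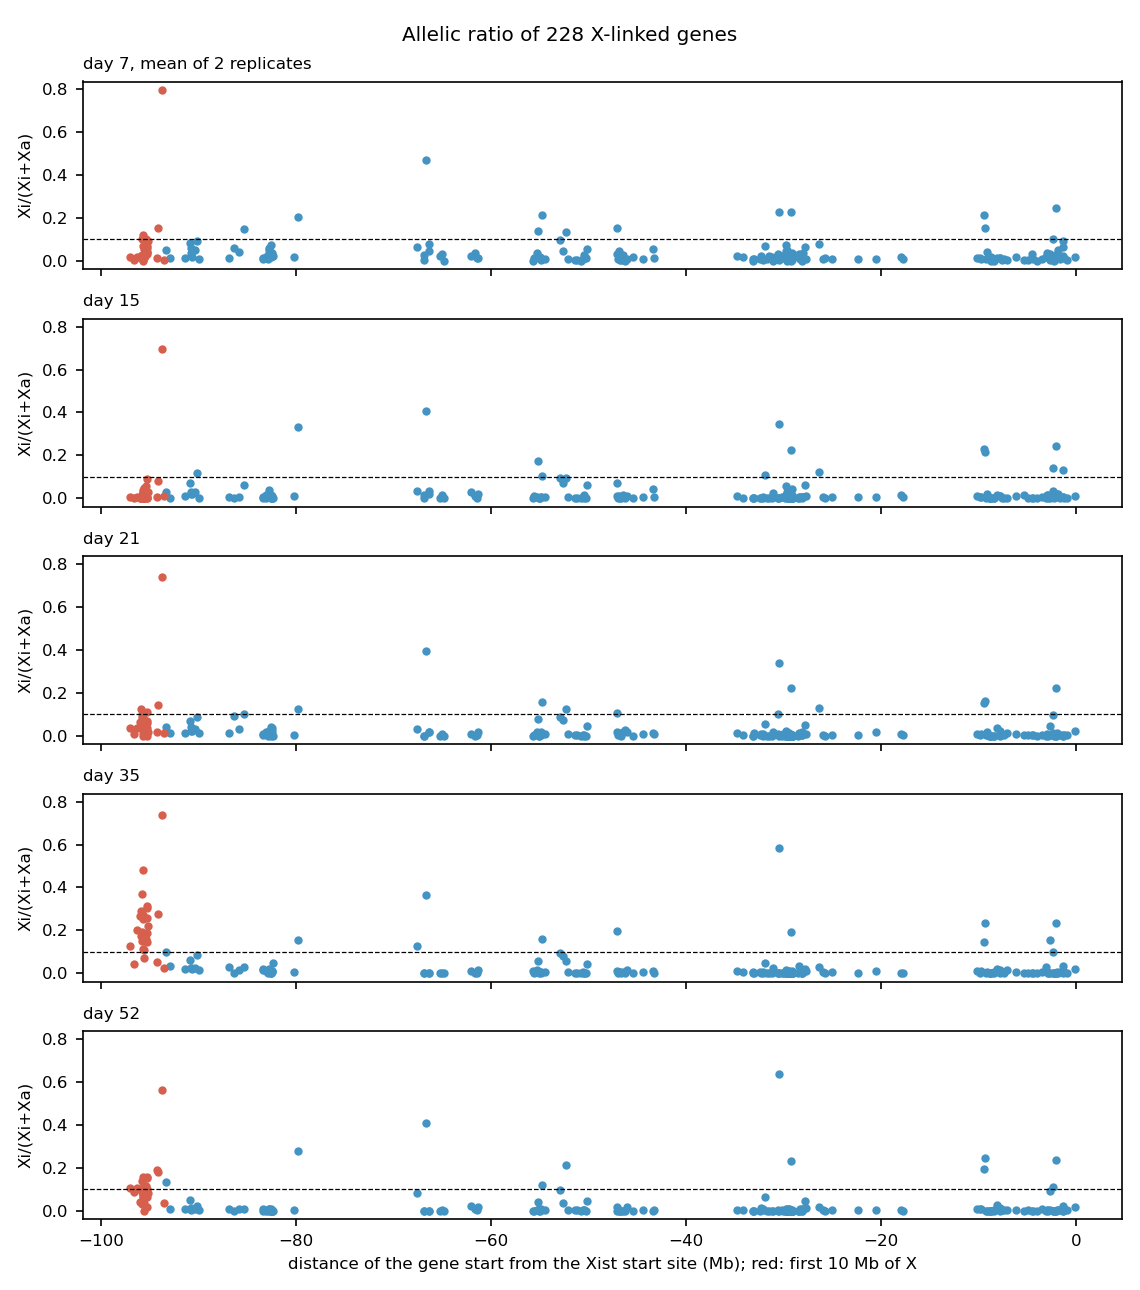
Allelic ratio Xi/(Xi+Xa) of each of 228 X-linked genes against the distance of its start from the Xist start site in Mb, for day 7 (mean of 2 replicates) and the 4 late libraries; red points start in the first 10 Mb of X and the dashed line is a ratio of 0.1. Red points rise on day 35 (28 of the 32 above 0.1) and day 52 (12), while most blue points sink towards 0.

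The number of genes above a ratio of 0.1 was 61 and 37 on day 5, 21 and 18 on day 7, and 16, 16, 44 and 26 at days 15, 21, 35 and 52 (difference of means −8.75, exact two-sided permutation test, p = 0.571). Without the first 10 Mb it was 50, 31, 16 and 14 and then 15, 12, 14 and 12, with the late libraries close to those of day 7 (difference −14.5, same exact test, p = 0.0857). At a limit of 0.2, or without day 5 replicate 1, the sign of the full count turned. The share of all fragments from X-linked genes, Xist left out, was 3.71%, 3.4%, 3.51% and 3.4% early and 3.42%, 3.49%, 3.27% and 3.43% late (difference −0.102 percentage points, exact two-sided permutation test, p = 0.371), and with Xist included it was 2.29 points higher late.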

How the data were processed

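The authors discarded ribosomal reads (Bowtie2 2.3.2), mapped with STAR 2.4.2a to mm10 in which the strains' SNPs were masked, assigned fragments to alleles with SNPsplit and deposited counts per gene and library from featureCounts 1.5.2 (strand-specific, over whole transcripts). Their deposited allelic ratio (fraction) tables served only for the list of X-linked genes and to check which count column is Cast. In the table for iXist-ChrX-Dom, 26 ratio columns carry names of other libraries and were not used. Total counts were tested with edgeR 4.0.16 (TMM, filterByExpr, quasi-likelihood), allelic ratios with limma 3.58.1 and single values per library with an exact permutation test; DESeq2 1.42.0 was an alternative. The threshold was an adjusted p of 0.05. Scripts were tested on simulated data. Named genes are the 10 largest rises and falls past the threshold without overlap and a mean log2 CPM of 2 or more, up to 3 called members per list and direction, the 10 highest late ratios, all escape and retained genes and fixed markers; other members named were chosen after their values were seen. The libraries, genes and lists were chosen with earlier results of these data known. RPM divides by assigned fragments (24234960 to 31216487 per library). Some items are not reported here.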

Additional observations from a re-analysis of the deposited data

Results flagged for a closer look

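In 11 of 216 groups of 4 libraries, 1 library stood apart from the other 3 by Dixon's ratio of its gap to the range (95% critical value), and chance gives about 1 in 20. Those within days 5 and 7 were Emcn (0.836, day 5 replicate 2 at 0.0413 RPM against 0.0728 to 0.0797 RPM, all near the limit of detection), Apoe (0.918, day 7 replicate 2 at 43.9 RPM against 29 to 30 RPM), Meis2 (0.863, day 7 replicate 1 at 199 RPM against 35.4 to 44.8 RPM) and Hoxd11 (0.985, day 7 replicate 1 at 0.291 RPM against 0.0391 to 0.0413 RPM). Among the late libraries they were C1qtnf7 (0.884, day 21 at 4.26 RPM), Lrp2 (0.856, day 15 at 78.1 RPM), Zic5 (0.862, day 15 at 2.88 RPM against 5.28 to 5.82 RPM), Tet3 (0.847, day 21 at 66.7 RPM against 111 to 121 RPM) and Tubb3 (0.895, day 15 at 18 RPM against 3.1 to 3.73 RPM).

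In the allelic ratios, Ercc6l (1, day 15 at 0.00694 and the other late days at 0) and Rpl10 on days 5 and 7 (0.899, day 7 replicate 1 at 0.198 against 0.258 to 0.264) stood apart.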

How the results depend on the processing

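No paired analysis was possible because the late libraries carry no replicate number. The cause of the shifts below was not tested. The 1815 calls on total counts became 2766 with library totals, 3779 in DESeq2, 4150 with day as a factor, 3973 with all 12 WT libraries of the line, 0 against day 7 alone, and, in settings chosen after seeing the data, 49 in the 5 libraries of the low allelic profile and 2973 without days 15 and 21; leaving out 1 library gave 398 to 3950. Of 73 called list members, 21 passed in all 8 of those fits. For the allelic ratio, the 7 calls became 98 (log2 scale), 91 (edgeR), 0 (20 fragments), 0 (6 of 8 libraries), 47 (day 7 alone), 0 (profile term) and 0 to 59 without 1 library. The median ratio differed by −0.0271, by −0.0172 as a mean ratio (exact permutation p = 0.2) and by −0.0322 to −0.0209 without 1 library, with an exact p of 0.0857 where a late one was left out. With days 5 and 7 averaged per time course, chosen after seeing the data, the median ratio (−0.0271) and Xist (1.41) kept their differences with an exact p of 0.0667, the smallest possible for 4 against 2. The number above 0.1 turned to 1.5 at a limit of 0.2 and ranged from −14.9 to 0.167 without 1 library. The X-linked share turned to 2.29 with Xist and to 0.0291 as a median log2 CPM of X-linked against autosomal genes. The line comparison gave 4 calls in DESeq2 and 1 over days 5, 7 and 15.

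Smchd1 (0) turned negative with library totals (−0.203), a CPM minimum (−0.00451), day as a factor (−0.0173), 12 libraries (−0.00351), the low profile alone (−0.021), without days 15 and 21 (−0.249) and ranged from −0.0738 to 0.113 without 1 library. Without 1 library Pax6 ranged from −0.375 to 1.4 and Tubb3 from −0.702 to 0.694, both negative without day 15 alone. In the low profile alone they were at −0.526 and −0.735, and without days 15 and 21 at −0.151 and −0.723, with Nes at −0.131. Wdr44 and Xk turned on the log2 scale (−0.0092, −0.0736) and in edgeR (−0.0286, −0.0421), Xk with the profile term (−0.00734), and without 1 library Wdr44 (−0.0299 to 0.0395), Xk (−0.0342 to 0.0325), Wdr45 (−0.0343 to 0.113) and Nono (−0.0126 to 0.0148).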
